A study of Caenorhabditis elegans with 45 samples.

Results

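The U18A strain of Caenorhabditis elegans carries a U-to-A change at position 18 of let-7, counted from the 5′ end of the mature miRNA, and its small RNAs were compared with those of wild type. The 6 libraries of the comparison, 3 of U18A and 3 of wild type (WT), were taken by their labels from 45 libraries of 15 genotypes. U18A was strain VT3797, with the allele let-7(ma435) on chromosome X and the transgene maIs105 on chromosome V. WT was strain VT1367, which carries maIs105 alone, so the transgene was common to both groups. maIs105 is known as an integrated GFP reporter of the adult collagen gene col-19. The strains changed at the neighbouring positions, A17U with let-7(ma450) and A19U with let-7(ma436), also have 3 libraries each and were set beside U18A where stated. All libraries were made with a ligation-based small RNA kit from total RNA of whole animals at the mid L4 larval stage, grown on the bacterial strain HB101 at 20 °C for 45 hours after feeding. Each mutant is a single allele in a single strain, and whole animals mix all tissues, so fewer cells of a type and less RNA per cell cannot be told apart.

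let-7 is a conserved miRNA of the heterochronic pathway, which sets the timing of larval cell fates. It accumulates late in larval life and represses lin-41 and other targets, so that skin cells stop dividing and take on adult fates. A miRNA recognises its targets mainly through the seed near its 5′ end, and bases toward the 3′ end can add pairing and also meet the enzymes that process, trim or degrade the miRNA. Position 18 lies in this 3′ part, outside the seed (positions 2 to 8). In the WBcel235 annotation, mature let-7 lies on the minus strand of chromosome X from 14744234 to 14744255, and the changed base is at 14744238. The let-7 gene spans 14743590 to 14745321 and overlaps an exon of C05G5.7, a gene on the same strand.

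The miRNA counts summed to 1622145, 2481961 and 2202420 reads in U18A libraries A, B and C, against 2158302, 1789409 and 1319030 reads in the WT libraries. Over all 45 libraries the range was 1009758 to 3574420. Of the 257 miRNA genes listed, 130 passed the filter on low counts and were tested. Several miRNAs known to be abundant in worms, lin-4, mir-1, mir-52, mir-71 and mir-80 among them, were listed at 0 in every library, and nothing is read from those zeros. The U18A libraries were not closest to each other throughout. Across the 130 miRNAs, U18A A had a correlation of log levels of 0.985 with each of U18A B and U18A C, and of 0.988 to 0.993 with the WT libraries. U18A B and C correlated at 0.991 with each other. U9G replicate B, a library of another mutant, stood apart in the series and entered the shared estimate of spread, so calls are also given from a fit of the other 44 libraries. The labels do not say that libraries of a genotype came from separate cultures, and p-values then measure only the spread between these samples, which may be technical.

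The level of let-7 in U18A was lower than the WT level on average, by a difference that did not pass the threshold after adjustment. U18A libraries A, B and C held 31559, 43897 and 49779 reads of the let-7 form that the strain encodes, against 70780, 38505 and 35166 reads of the wild-type form in the WT libraries. In reads per 1000000 miRNA reads (RPM), let-7 stood at 19455, 17686 and 22602 in U18A, against 32794, 21518 and 26661 in WT. U18A C lay above WT B, so the groups overlapped on this scale. The means were 19914 ± 2490 RPM in U18A and 26991 ± 5645 RPM in WT (SD, n = 3 each), U18A being at 73.8% of WT, with p = 0.2 in an exact two-sided permutation test. Taken by replicate letter, U18A was lower in 3 of 3 pairs. The exact paired permutation test, added after the data were seen, gave p = 0.25, the smallest that 3 pairs allow. With the letter as a block in edgeR the adjusted p was 0.522.

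After scaling by TMM factors, which adjust each library total for its overall composition, let-7 stood at 19750, 17785 and 21387 normalised counts per 1000000 (CPM) in U18A, against 35086, 21761 and 27660 in WT. On this scale the groups did not overlap, by a gap of 21387 CPM in U18A C to 21761 CPM in WT B. U18A was at 69.7% of WT, and the exact permutation test gave p = 0.1, the smallest that 3 against 3 libraries allow. The edgeR quasi-likelihood test over all 45 libraries gave a log2 difference of −0.52 (SE 0.247, 95% interval −1.02 to −0.02), with an unadjusted p of 0.0426 and an adjusted p of 0.731 over 130 miRNAs. In the fit of 44 libraries, without U9G replicate B, the log2 difference was −0.57 (SE 0.175) with an adjusted p of 0.0732. The size depended on the WT libraries: without WT A, the highest at 32794 RPM, the log2 difference was −0.36, and without WT B, the lowest, it was −0.74.

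**Figure D1:**
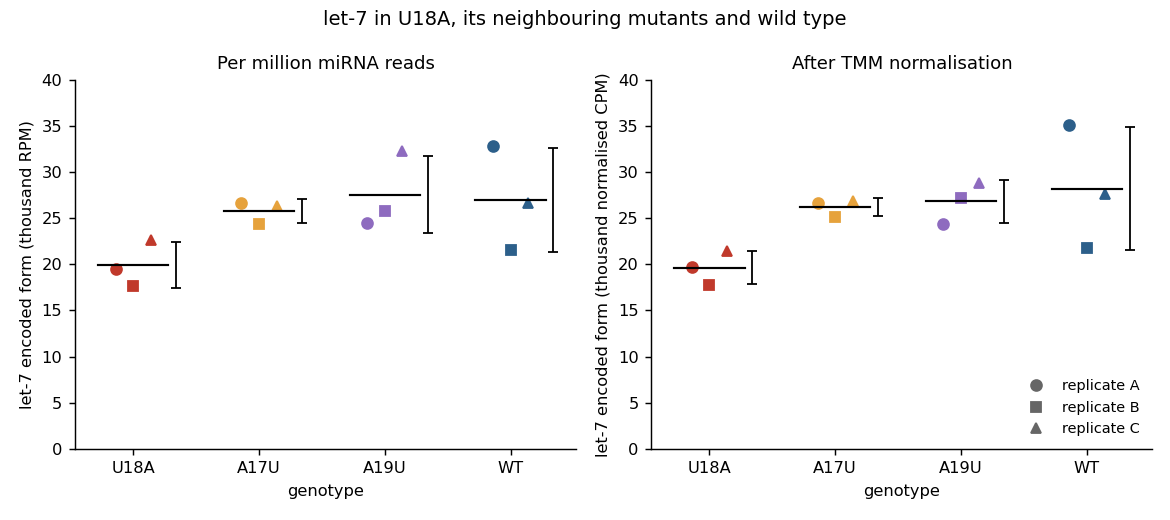
let-7 level in each U18A, A17U, A19U and WT library, as RPM (left panel) and as TMM-normalised CPM (right panel), both in units of 1000, with 1 point per library, a line at each mean and a bracket of 1 SD either side. U18A C (22602 RPM) lies above WT B (21518 RPM) on the left, whereas the groups are separate on the right.

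Among the 14 mutants, the mean of U18A ranked 4 from the lowest in reads of the encoded let-7 form. Below it were G11U at 13772 RPM and G15A at 15307 RPM, both with the duplication mnDp1 in their labels, and U22A at 15628 ± 2927 RPM (SD, n = 3). U14A, next above, averaged 23344 ± 3313 RPM. The mean ± SD ranges of U18A overlapped those of U22A below and U14A above. The rank depends on the form counted: by both forms together, U18A at 19939 RPM ranked 2, after G15A at 15353 RPM and next to U22A at 19972 RPM and G11U at 21228 RPM. The neighbours A17U and A19U averaged 25789 ± 1287 and 27549 ± 4186 RPM (SD, n = 3 each). In the direct edgeR contrast of U18A against the mean of A17U and A19U, the log2 difference of let-7 was −0.43 (SE 0.217, 95% interval −0.87 to 0.01), with an unadjusted p of 0.0548 and an adjusted p of 0.860. Without U9G replicate B it was −0.48 with an adjusted p of 0.192.

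The let-7 reads fitted the label of the strain. Reads of the wild-type form numbered 26, 49 and 81 in U18A A, B and C, of 31585, 43946 and 49860 let-7 reads of both forms. These are shares of 0.0823% (Wilson 95% interval 0.0562 to 0.121), 0.112% (0.0844 to 0.147) and 0.162% (0.131 to 0.202). The interval of library C lies above that of library A, so the libraries differed beyond counting error, and the mean was 0.119% ± 0.0406 (SD, n = 3). Of the other mutants whose labels lack mnDp1, A17U averaged 0.0593%, A19U 0.133%, A10U 0.111% and G20C 0.0926%. U9G averaged 0.203%, with 1 library at 0.561%, and U21A at 7.31% and U22A at 21.8%, changed at the end of the miRNA, were far higher. Low shares were also seen in strains labelled with mnDp1, such as U14A at 0.0881% and U16G at 0.0458%. The WT libraries listed 0 reads of a mutant form, which allows shares of up to 0.00424% to 0.00853%, although the form searched for there is not stated.

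The ratio of the encoded form's count to the count of the let-7 gene was also similar in both groups. It was 78.7%, 80.0% and 78.6% in U18A, against 77.5%, 78.1% and 70.9% in WT. This is a ratio of separate counts and not a share. The encoded form's count was above the gene count in every library of A10U, G11U and G15A, with ratios of 1096%, 1206% and 1047% in A10U. It was below the gene count in every library of the other mutants. With the gene count itself as the let-7 count, the log2 difference was −0.59 with an adjusted p of 0.364 in the edgeR fit.

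The sisters of let-7, which share its seed and act with it in late larval timing, were measured at similar levels in both strains. lin-58, the gene of miR-48, stood at 84493, 54104 and 65622 CPM in U18A, against 72759, 62408 and 50343 CPM in WT. The groups overlapped, and the log2 difference was 0.14 (95% interval −0.83 to 1.10). mir-84 stood at 11866, 11600 and 11967 CPM in U18A, against 15444, 12645 and 11712 CPM in WT, a log2 difference of −0.17 (95% interval −0.68 to 0.34). mir-241 stood at 4299, 3326 and 2794 CPM in U18A, against 4469, 3615 and 2542 CPM in WT, a log2 difference of −0.03 (95% interval −0.66 to 0.60). The less studied members mir-793, mir-794 and mir-795 had log2 differences of 0.09, −0.14 and 0.19.

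Of the 7 members of the let-7 family, all tested, 0 passed the threshold in edgeR or in DESeq2, and 1, let-7 itself, had an unadjusted p under 0.05. Over all 130 miRNAs 2 passed in edgeR (1.54%) and 8 had an unadjusted p under 0.05, so the family's counts are near those shares. The median log2 difference of the family was −0.03, beside 0.01 over all 130 miRNAs. The intervals of lin-58, mir-84 and mir-241 leave room for differences of the size seen for let-7. mir-237, which shares the seed of the timing miRNA lin-4, stood at 25408, 17115 and 25022 CPM in U18A, against 27808, 25306 and 27483 CPM in WT, a log2 difference of −0.25 (95% interval −0.66 to 0.15).

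Over all miRNAs, 2 rose in U18A and 0 fell at an adjusted p under 0.05 in edgeR, which is 1.54% of the 130 tested higher and 0% lower. They were mir-2220 and mir-1018, neighbours on chromosome X, and 8 miRNAs had an unadjusted p under 0.05. The Wald test of DESeq2 called 3, these and mir-2208.1. Without U9G replicate B the calls were 4 higher of 134 tested (2.99%) and 0 lower (0%), adding mir-4808 of the same X cluster and mir-2208.1 of a cluster on chromosome IV. The groups did not overlap for 9 miRNAs that were higher in U18A (6.92% of 130) and 4 that were lower (3.08%).

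**Figure D2:**
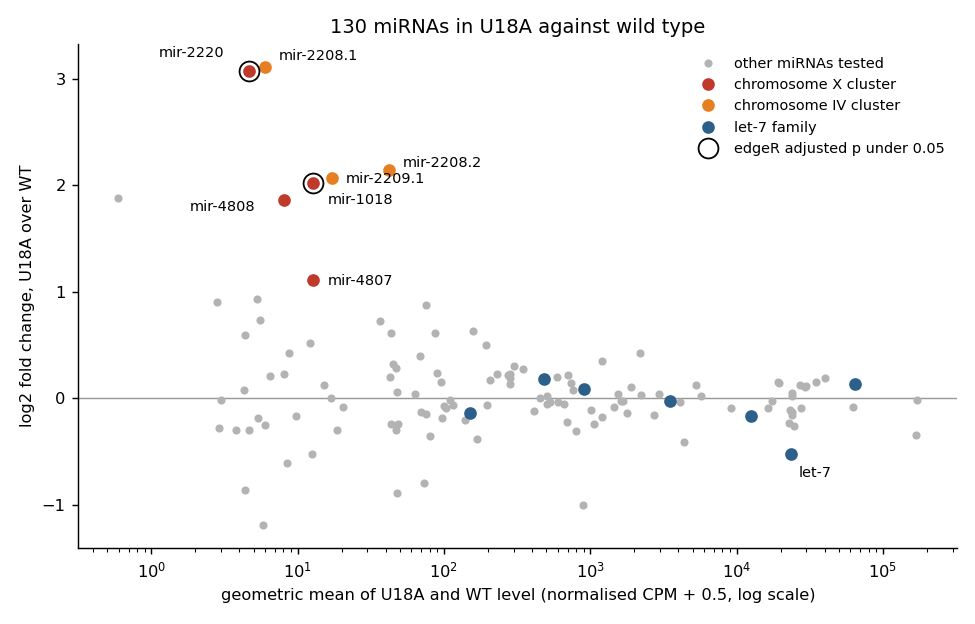
Log2 difference of U18A minus WT for the 130 tested miRNAs (vertical axis) against the geometric mean of U18A and WT normalised CPM + 0.5 on a log axis (horizontal). Circled points passed the threshold in edgeR. The 7 tested members of the clusters on chromosomes X and IV lie above 1 at low levels, whereas let-7 at −0.52 is the lowest of the 43 miRNAs at 1000 CPM or more.

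The X cluster was taken as 4 miRNAs, mir-4807 (1872466 to 1872526), mir-4808 (1872952 to 1873008), mir-2220 (1873827 to 1873884) and mir-1018 (1879458 to 1879513), all on the plus strand within 7048 bases and outside protein-coding genes in WBcel235. It is on the same chromosome as let-7 but far from it. Within the same span and strand lie 3 more miRNAs that were below the filter on counts. mir-4809 (1873646 to 1873704) had 0, 1 and 3 reads in U18A, against 1, 2 and 0 in WT. mir-4810.2 (1874016 to 1874075) had 0, 5 and 3 reads in U18A, against 1, 0 and 3 in WT, and mir-4810.1 (1875738 to 1875794) had 0, 1 and 2 reads in U18A, against 0 in each WT library. These miRNAs have no established role that can be given here. The 4 tested ones were scarce, at no more than 82 reads in any of the 6 libraries, and all 4 had a higher mean in U18A.

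mir-2220 had 6, 30 and 44 reads in U18A A, B and C, against 5, 1 and 1 reads in the WT libraries. As normalised CPM these are 3.76, 12.2 and 18.9 in U18A, against 2.48, 0.565 and 0.787 in WT. All U18A libraries were above all WT libraries, although U18A A lay close to WT A. The log2 difference was 3.07 (SE 0.635), with an adjusted p of 0.00364 in edgeR. mir-2220 was below the count filter in a fit of only the 6 libraries compared. It entered the fit of 45 libraries through the libraries where it was higher, those of other genotypes among them. With no filter on counts it also passed the threshold. Without U9G replicate B the adjusted p was 0.00613. The ratio of summed reads per miRNA total was 9.54 (95% counting interval 4.42 to 24.5).

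mir-1018 had 17, 70 and 82 reads in U18A, against 17, 11 and 4 reads in WT. Its normalised CPM were 10.6, 28.4 and 35.2 in U18A, against 8.43, 6.22 and 3.15 in WT. Again the groups did not overlap and U18A A was nearest to WT. The log2 difference was 2.02 (SE 0.458), with an adjusted p of 0.00636 in edgeR, and 0.0103 without U9G replicate B. The ratio of summed reads was 4.41 (3.01 to 6.65).

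Both calls were lost when U18A C, WT B or WT C was left out. Without U18A C the adjusted p was 0.108 for mir-2220 (log2 difference 2.49) and 0.148 for mir-1018 (1.63). Without WT B these were 0.0666 (2.63) and 0.0666 (1.96), and without WT C 0.0545 (2.81) and 0.137 (1.70). Without WT A, which held 5 of the 7 WT reads of mir-2220, its log2 difference was 4.02, and that of mir-1018 was 2.34. Without U18A C, WT B or WT C the number of calls was 0, with 5 unadjusted p under 0.05 besides let-7 without U18A C and 7 without WT B or WT C.

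mir-4808 had 13, 56 and 26 reads in U18A, against 4, 8 and 7 reads in WT, which is 8.14, 22.7 and 11.2 CPM in U18A and 1.98, 4.52 and 5.51 CPM in WT. The groups did not overlap, with a log2 difference of 1.86 (SE 0.650) and an adjusted p of 0.233, or 0.0448 without U9G replicate B. mir-4808 too entered the fit largely through libraries where it was higher, those of other genotypes among them. mir-4807 had 16, 68 and 36 reads in U18A, against 11, 13 and 16 reads in WT, which is 10.0, 27.6 and 15.5 CPM in U18A and 5.45, 7.35 and 12.6 CPM in WT. Here U18A A lay below WT C, and the log2 difference of 1.11 (SE 0.631) had an adjusted p of 0.967, or 0.602 without U9G replicate B. Of the 4 tested miRNAs of the X cluster, which were chosen with earlier results of these data known, 2 rose and 0 fell, and these 2 are the only calls, 1.54% of all 130. For these 4 the median log2 difference was 1.94, beside 0.01 over all 130 miRNAs.

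The IV cluster lies between 1021303 and 1027281 on chromosome IV, 5979 bases. It holds mir-2208.1 (1021772 to 1021832), mir-2208.2 (1026580 to 1026640), mir-2209.1 (1027101 to 1027164) and mir-2209.3 (1027218 to 1027281) on the plus strand, and mir-2209.2 (1021303 to 1021365) on the minus strand. These miRNAs too are given no role here. How the authors' counting treated reads shared between copies such as mir-2208.1 and mir-2208.2 is not stated, so the split between copies is uncertain.

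mir-2208.1 had 8, 56 and 43 reads in U18A, against 5, 2 and 2 reads in WT, which is 5.01, 22.7 and 18.5 CPM in U18A and 2.48, 1.13 and 1.57 CPM in WT. The groups did not overlap. Like mir-2220, mir-2208.1 was scarce in every WT library. It entered the fit of 45 libraries through the libraries where it was higher, those of other genotypes among them. The log2 difference was 3.11 (SE 0.932) with an adjusted p of 0.0895, or 0.0448 without U9G replicate B. With U18A A left out it was 3.44, with an adjusted p of 0.0470, and there were then 3 calls.

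mir-2208.2, the most abundant of the cluster, had 38, 285 and 281 reads in U18A, against 46, 32 and 23 reads in WT, which is 23.8, 115 and 121 CPM in U18A and 22.8, 18.1 and 18.1 CPM in WT. U18A A was level with WT A, and the other U18A libraries were far above. The log2 difference was 2.14 (SE 0.780) with an adjusted p of 0.244, or 0.0812 without U9G replicate B. mir-2209.1 had 6, 99 and 133 reads in U18A, against 13, 20 and 8 reads in WT, and U18A A was below every WT library. Its log2 difference was 2.07 (SE 0.773), with an adjusted p of 0.244.

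The other members of the IV cluster were below the filter. mir-2209.3 had 1, 2 and 15 reads in U18A, against 1, 0 and 0 in WT, and mir-2209.2 had 0, 0 and 3 reads in U18A, against 1, 1 and 2 in WT. Of the 3 tested members 0 passed the threshold in the edgeR fit of 45 libraries, where all 3 had an unadjusted p under 0.05, as did 8 of all 130. Without U9G replicate B 1 of the 3 rose, beside 4 of 134 (2.99%) over all miRNAs, and 1 of the 3 passed in DESeq2. Their median log2 difference was 2.14. This cluster too was chosen with earlier results of these data known.

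**Figure D3:**
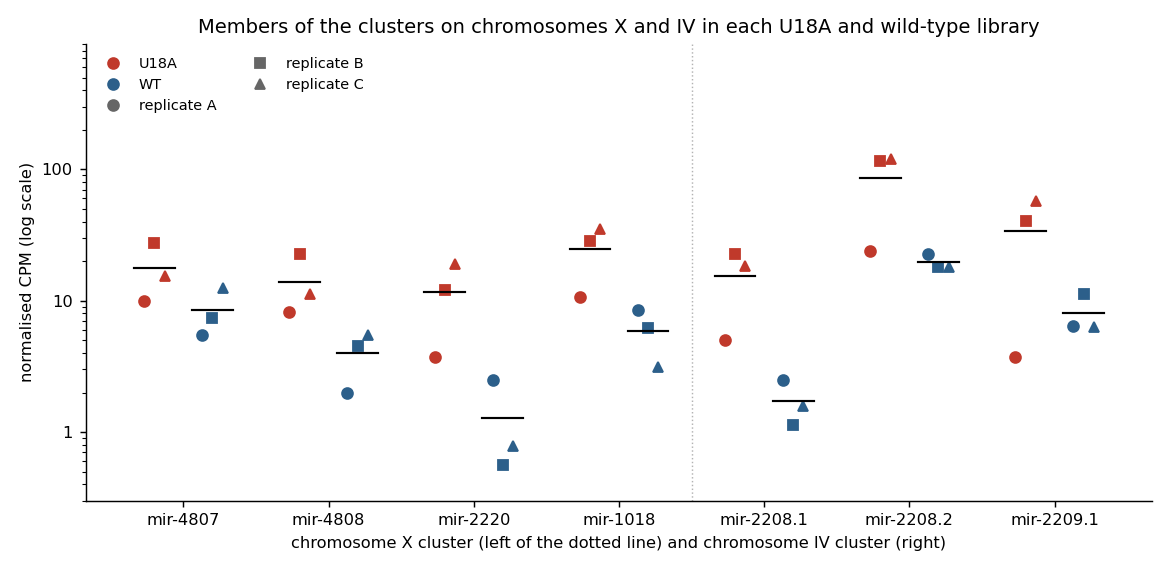
Normalised CPM (log axis) of the 7 tested cluster members in each U18A and WT library, with 1 point per library, shaped by replicate, and a line at each mean. Library A is the lowest of the U18A libraries in all 7, and for mir-2209.1 (3.76 CPM) it lies below all WT libraries.

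The U18A libraries were not alike in these clusters. U18A A was the lowest U18A library in 7 of the 7 tested members, compared with 49 of all 130 tested miRNAs (37.7%). The summed X cluster stood at 32.5, 90.8 and 80.8 CPM in U18A A, B and C, against 18.3, 18.6 and 22.0 CPM in WT. The U18A libraries were thus at 1.65, 4.61 and 4.11 times the WT mean. The summed IV cluster, over its 3 tested members, stood at 32.5, 178 and 196 CPM in U18A, against 31.7, 30.5 and 26.0 CPM in WT, which is 1.11, 6.06 and 6.68 times the WT mean. The difference in the IV cluster was thus carried by libraries B and C.

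Some libraries of other genotypes were as high as U18A. For the summed X cluster U18A had the highest mean of the 15 genotypes, 68.0 ± 31.1 CPM (SD, n = 3), and its libraries B, C and A had ranks of 2, 3 and 9 among the 45. For the IV cluster its mean of 136 ± 89.8 CPM was the second highest, after A10U at 280 CPM and before A19U at 124 CPM, and its libraries C, B and A had ranks of 3, 5 and 10. The 6 highest libraries were the same for both sums. They were U18A B and C, A10U A and C, and A19U A and C.

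**Figure D4:**
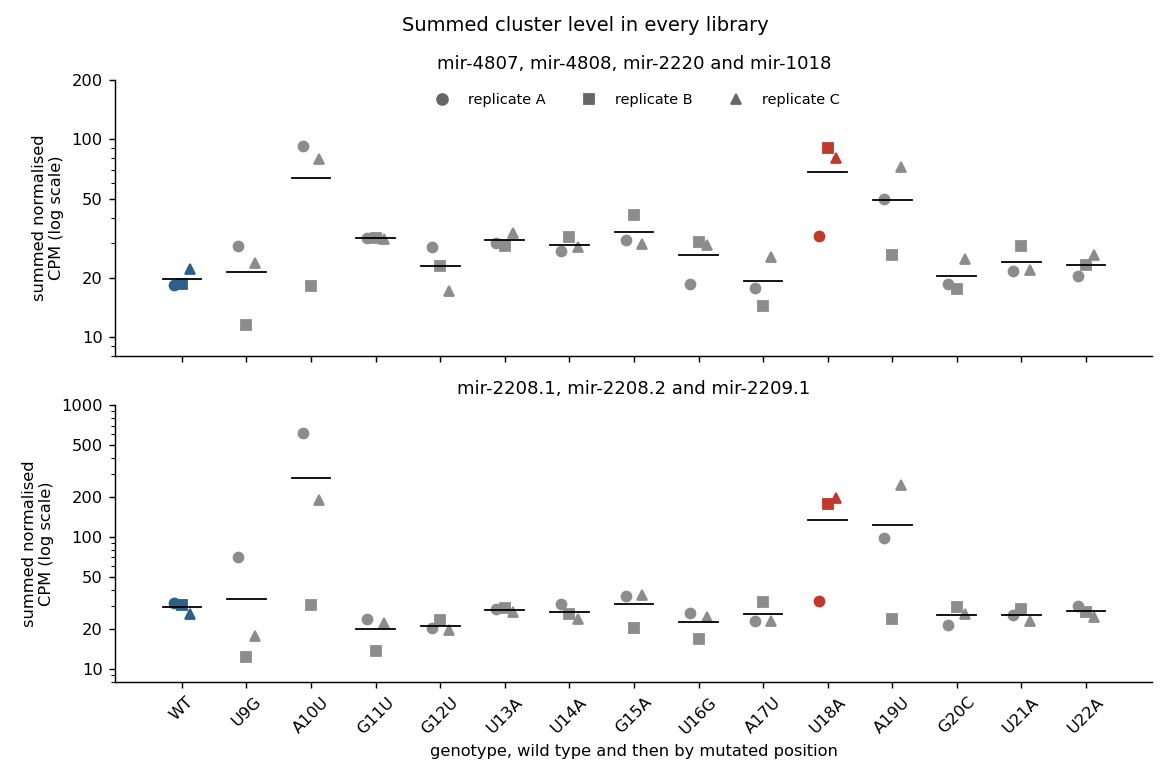
Summed normalised CPM (log axis) of the X cluster (top) and of the tested IV cluster members (bottom) in all 45 libraries, by genotype with wild type at the left and then by mutated position, with a line at each mean. U18A (red), A10U and A19U each have 2 high libraries and 1 lower one, while WT (blue) lies between 18.3 and 22.0 CPM in the top panel.

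Against the neighbouring mutants, 0 of 130 miRNAs (0%) passed the threshold in the edgeR contrast of U18A with the mean of A17U and A19U, and 0 in DESeq2, while 6 had an unadjusted p under 0.05 in edgeR. The log2 difference was 1.14 for mir-1018 (95% interval 0.42 to 1.87), 1.29 for mir-2220 (0.40 to 2.18) and 1.46 for mir-4808 (0.42 to 2.50), each with an adjusted p of 0.314. For mir-2208.1, mir-2208.2 and mir-2209.1 it was 1.17, 1.22 and 1.44. The neighbours themselves differed. The X cluster sum was 17.7, 14.4 and 25.4 CPM in A17U and 49.8, 26.0 and 72.1 CPM in A19U, and the IV cluster sum was 23.1, 32.0 and 23.3 CPM in A17U and 99.2, 23.9 and 248 CPM in A19U. A17U thus lay near WT in both sums, and A19U C lay near or above U18A B and C. Leaving out A19U C gave 1 call, mir-2220, with a log2 difference of 1.71.

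Markers of tissues and of the germ line were compared as a check of the animals' makeup. The mir-35 family, of oocytes and embryos, summed to 13738, 11091 and 13819 CPM in U18A, against 12831, 12521 and 13350 CPM in WT, so the groups overlapped. Of its 8 members 7 were tested, 0 passed the threshold in edgeR or DESeq2, 0 had an unadjusted p under 0.05 in edgeR, and the median log2 difference was −0.03. Over all 130 miRNAs 2 passed in edgeR (1.54%) and 8 had an unadjusted p under 0.05, so counts of 0 among 7 are near those shares. lsy-6, a miRNA of a single taste neuron, stood at 41.9, 37.3 and 55.9 CPM in U18A, against 27.8, 47.5 and 42.5 CPM in WT. mir-228, a glial miRNA, stood at 24862, 32413 and 35669 CPM in U18A, against 26852, 27332 and 31751 CPM in WT, a log2 difference of 0.11, and mir-57, of posterior cells, had one of −0.23. The muscle marker mir-1, the neuronal marker mir-124 and the intestinal marker mir-60 were listed at 0 throughout, so those tissues could not be checked.

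Of these markers, mir-228 moved with the split of the U18A libraries in the clusters, where A was low and B and C high. mir-57 did not, at 22058, 21818 and 19236 CPM in U18A A, B and C, and lsy-6 was lowest in B. Library A was the lowest U18A library in 49 of all 130 tested miRNAs (37.7%), so a low value there is not particular to mir-228. The 3 measured tissue markers summed to 46962, 54269 and 54960 CPM in U18A, against 41915, 55209 and 62833 CPM in WT. The mir-35 family did not have this order, since libraries A and C were at 13738 and 13819 CPM. The part of the tissue markers in the cluster result was not tested. The share of reads that mapped was 60.2%, 59.9% and 60.1% in U18A A, B and C, and miRNA counts were 87.1%, 87.8% and 81.0% of the mapped reads, so neither share separated library A from B and C. Depth did separate them, with 3093621 reads in U18A A, against 4717325 in B and 4521838 in C. The part of depth in the cluster result was not tested. Whether developmental stage, culture or another feature of the animals moved with the clusters was not tested.

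Most other miRNAs had small log2 differences, some of them with wide intervals. Examples are mir-51 at 0.15 (95% interval −0.80 to 1.10) and mir-235 at 0.04 (−1.20 to 1.27). Of the 43 miRNAs at a mean of 1000 normalised CPM or more, 42 had a log2 difference within 0.5 of 0, with let-7 the exception. In edgeR 0 of the 43 passed the threshold, beside 2 of all 130 (1.54%). The highest log2 difference among the 43 was that of mir-230 at 0.42. Of all 130, 104 lay within 0.5 of 0, with 66 above 0 and 64 below. A log2 difference over 1 was seen for 8, which were the 7 tested cluster members and mir-8200, a miRNA with 1 read in the 6 libraries, for which no fold can be given. A difference below −1 was seen for 1, mir-4926, with 4, 6 and 12 reads in U18A, against 8, 10 and 19 reads in WT.

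The 5 most abundant miRNAs in WT, mir-70, mir-58.1, mir-82, lin-58 and mir-72, took 47.8% to 52.1% of the miRNA counts in U18A, against 50.6% to 52.0% in WT. mir-70, the most abundant, averaged 150404 ± 40482 CPM in U18A and 190416 ± 20276 CPM in WT (SD, n = 3 each), a log2 difference of −0.34.

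The next miRNAs by p were smaller in change and did not pass the threshold. The first of them, mir-2212, with an unadjusted p of 0.0450 in edgeR, is given under the other observations. mir-251 stood at 36.3, 37.7 and 65.7 CPM in U18A, against 29.7, 22.0 and 33.0 CPM in WT, without overlap (log2 difference 0.73, adjusted p 0.930 in edgeR). mir-244 stood at 796, 805 and 560 CPM in U18A, against 936, 912 and 820 CPM in WT (−0.30, adjusted p 0.967). mir-44 stood at 304, 185 and 203 CPM in U18A, against 147, 181 and 161 CPM in WT, also without overlap. It was not among the next by p, with an unadjusted p of 0.272 in edgeR. The others by p had log2 differences of 0.40 for mir-358, −0.41 for mir-246, −0.52 for mir-8206, −0.80 for mir-1817, −0.89 for mir-41 and −0.999 for mir-2214. Besides let-7, the miRNAs lower in U18A without overlap were mir-244, mir-1829.1 and mir-799. The members higher without overlap, besides those above, were mir-4814 and mir-796, both under 10 CPM.

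Among the families fixed as lists, 0 members passed the threshold in edgeR in the mir-51, mir-58 and mir-44 families, with median log2 differences of 0.03, −0.05 and 0.22. The same held for mir-63 to mir-66 with mir-229 (−0.08), mir-72 and mir-73 (0.17), mir-238 with the mir-239 pair (−0.11) and mir-228 with its seed relatives (0.11), and 0 of the 4 tested members passed on the list of abundant, broadly expressed miRNAs (0.12). Over all 130 miRNAs 2 passed in edgeR (1.54%), so 0 calls in lists this small are near that share. The X and IV clusters had medians of 1.94 and 2.14 over their tested members, outside the range of the medians above. The lists were chosen with earlier results of these data known, so this contrast is no independent result.

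**Figure D5:**
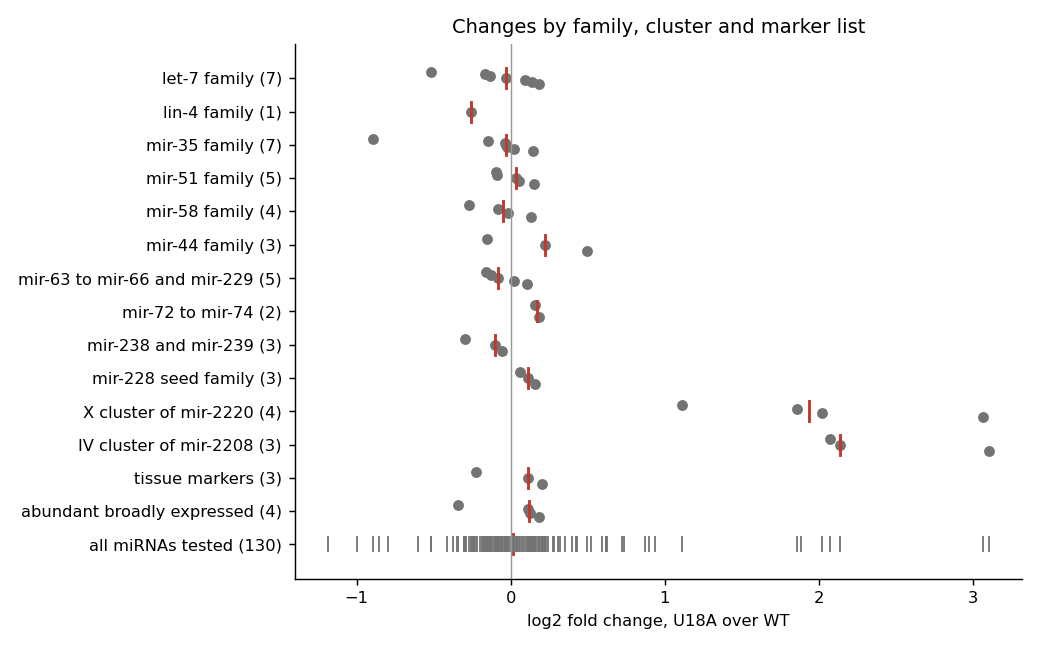
Log2 difference of U18A minus WT for the tested members of each miRNA list, 1 point per miRNA with a red line at the list's median, the number tested in brackets, and all 130 in the lowest row. The X and IV clusters have medians of 1.94 and 2.14, while the medians of the families lie between −0.25 and 0.22. The lists were chosen with earlier results of these data known.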

How the data were processed

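Small RNA was sequenced from whole mid L4 animals of 15 genotypes with 3 libraries each. The authors deposited whole-number counts of reads per miRNA gene, and a second table with 1 row per library of read counts, including let-7 reads of the wild-type and the mutant form. Reads were handled with cutadapt 1.9, Bowtie2 2.3.4.3 and featureCounts of Subread 1.6.2, per the submitters' processing notes. The build, the strand setting and the way in which a let-7 read was called wild-type or mutant are not given in the sources used here. A read of a changed let-7 differs from the reference genome, so the encoded form's count (mutant form in U18A, wild-type form in WT) replaced the let-7 row. RPM were computed over the summed miRNA counts. In 1 library, of another mutant, the listed miRNA total differed from that sum.

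The quasi-likelihood test of edgeR 4.0.16 (R 4.3.3) was run on the counts, with TMM scaling and filterByExpr by genotype, in 1 fit of 45 libraries with 1 coefficient per genotype. P-values were adjusted by Benjamini-Hochberg over the 130 miRNAs tested, with a threshold of 0.05. Normalised CPM are counts per 1000000 of the TMM-scaled total. Standard errors come from the F statistic. Permutation tests were exact and two-sided (SciPy 1.17.1). Shares carry Wilson 95% intervals, and a count of 0 allows 3 counts of the total. Reads carry no molecular identifiers, so these and the ratio intervals cover counting error only. The script was tested on simulated data.

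The replicate letters, which come from the labels without a stated meaning, were checked for pairing: deviations of same-letter U18A and WT libraries from their group means correlated at 0.237, 0.275 and 0.263, all over 0.1, and the letters were treated as pairs in an alternative.

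The text names let-7, the members of the lists, every miRNA past the threshold with or without U9G replicate B, the 10 higher and 10 lower with the smallest p, the 5 most abundant in WT and any past the threshold against A17U and A19U. mir-230, mir-8200 and those listed for lack of overlap were named after their values were seen. The members, lists and rule were chosen with earlier results of these data known. Positions and neighbours come from the WBcel235 annotation, in which all 257 IDs matched. Alternatives were DESeq2 1.42.0 and its size factors, total counts, no filter, at least 10 counts in every library, the replicate block, fewer libraries, other let-7 counts, other mutants in place of WT, and each library left out.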

Additional observations from a re-analysis of the deposited data

How the results depend on the processing

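The let-7 difference kept its direction and stayed short of the threshold in every alternative tested, with log2 values of −0.42 to −0.60 over the whole groups and −0.74 to −0.36 with 1 library left out. The share of the wild-type form in U18A moved within 0.0969% to 0.137% with 1 library left out. Besides let-7, the count of calls against WT was 0 when at least 10 counts were required in every library, which removes the called miRNAs, with 2 unadjusted p under 0.05. It was 4 without U9G library B, 0 in a fit of only the 6 libraries compared (6 unadjusted p under 0.05), 6 against the other 13 mutants, and 0 to 3 with 1 library left out. In the fit of 6 libraries mir-2220 was below the filter, and mir-1018 had a log2 difference of 1.94 with an adjusted p of 0.127 in edgeR. Against A17U and A19U the count was 0 to 1 with 1 library left out, and 0 in every other alternative. With the replicate block, there were 2 calls against WT, let-7 was at −0.53 with an adjusted p of 0.522 in edgeR, and no call changed. Same-letter pairs, added after the data were seen, gave a mean log2 ratio of RPM of −0.42.

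Among single miRNAs, 9 values turned sign over the alternatives that kept all U18A and WT libraries or replaced WT. Against the other 13 mutants mir-237 was at 0.0517, mir-2214 at 0.17, mir-241 at 0.0501, mir-793 at −0.0149 and mir-58.1 at 0.0349. mir-2214 was at 0.15 against the other 7 mutants without mnDp1. With total counts mir-241 was at 0.0358 and mir-58.1 at 0.0598, and with at least 10 counts mir-58.1 was at 0.0118. With 1 library left out, values ran from −1.62 to 0.0156 for mir-2214, −1.32 to 0.14 for mir-41, −0.11 to 0.26 for lin-58, −0.28 to 0.16 for mir-241, −0.12 to 0.16 for mir-793, −0.0218 to 0.27 for mir-795, −0.21 to 0.0865 for mir-58.1, −0.47 to 0.0664 for mir-82 and −0.0933 to 0.26 for mir-72. The cause was not tested. Depth limits the clusters, where tested members had as few as 1 read and untested ones 0 reads in WT libraries.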

Other observations

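A second neighbouring pair on chromosome X, mir-2212 (16207829 to 16207888) and mir-1819 (16207955 to 16208035), had the same order among the U18A libraries as mir-2220. mir-2212 stood at 50.1, 104 and 150 CPM in U18A A, B and C, against 46.6, 49.7 and 70.8 CPM in WT, a log2 difference of 0.87 with an adjusted p of 0.731 in edgeR. mir-1819 stood at 120, 232 and 238 CPM in U18A, against 149, 128 and 105 CPM in WT, a log2 difference of 0.63 with an adjusted p of 0.967. Library A was within the WT range in both miRNAs, and neither passed the threshold. Library A was the lowest U18A library in 49 of all 130 tested miRNAs (37.7%), so this trait is not particular to the pair. The pair was singled out after its values were seen.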
